A study of Mus musculus with 24 samples.

Results

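B cells of mouse fetal liver were compared by whether they carried immunoglobulin M (IgM) on their surface. The comparison rests on 6 of the 24 arrays of the series: 3 arrays of IgM-positive B cells (numbered 19, 20 and 21) and 3 arrays of IgM-negative B cells (16, 17 and 18), chosen by their titles. Every one of the 6 samples was labelled wild-type fetal liver, and no agent was given. The series' design text uses wild-type for mice heterozygous for Foxn1, the transcription factor gene of thymic epithelium, and the labels used here give no genotype for the livers themselves, no strain, no age and no surface markers other than IgM for the sort. The other 18 arrays hold thymocytes of 4 stages from heterozygous thymus (12 arrays), and CD4 and CD8 double-positive cells (4 arrays) and IgM-negative B cells (2 arrays) from the thymus of transgenic, Foxn1-deficient mice. Each array measured amplified cDNA of polyadenylated RNA from sorted cells in 1 colour. Nothing in the labels says that samples of a group came from separate animals, so a p-value speaks only of the scatter among arrays within groups. Some or all of that scatter may be technical. It was pooled for each gene over the groups of all 24 arrays. The p-values and the standard errors of differences thus do not measure the spread of the 6 arrays alone.

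Surface IgM marks a step in B cell development. Pro-B cells cut and join the variable gene segments of the heavy chain with the RAG recombinase; pre-B cells carry a heavy chain paired with a surrogate light chain, and then rearrange a kappa or lambda light chain gene; only when a true light chain pairs with the mu heavy chain does IgM reach the surface with its signalling chains CD79A and CD79B. In the mouse, kappa is used far more often than lambda, and the fetal liver is the main site of B cell development before birth.

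The IgM-positive arrays carried more signal of the kappa constant region gene Igkc on average, with overlapping groups. They carried less signal of the RAG genes on average. The groups overlapped for the tested probe of Rag2 and for the untested probe of Rag1. The 56 kappa variable segments tested were split, with 28 higher and 28 lower. At 3 arrays a group no gene passed the test. Of 33541 genes tested, limma called 0 higher and 0 lower in IgM-positive cells at an adjusted p under 0.05 (0% of genes in each direction). The smallest adjusted p was 0.0654, and 2382 genes had an unadjusted p under 0.05, of which 2042 were lower and 340 higher in IgM-positive cells. The 3 IgM-positive values lay all above the 3 IgM-negative values for 679 genes (2.02%) and all below them for 3853 genes (11.5%). This split moved with the scaling: with each array set to its median it was 1633 genes higher (4.87%) and 2290 lower (6.83%), and in the log2 table deposited by the authors it was 1456 higher (4.34%) and 2485 lower (7.41%). Values are log2 signals minus the array's 75th percentile, called scaled log2 signal here, and on this scale the median difference over all genes was -0.15 (IgM-positive minus IgM-negative), against -0.04 after quantile scaling and 0.00 after median scaling. The members' differences are to be read against that shift.

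The IgM-positive arrays were dimmer and less alike than the IgM-negative ones. The share of probes well above background was 87.6% to 91.9% on the IgM-positive arrays and 92.2% to 96.2% on the IgM-negative arrays. Across genes, the 3 pairs of IgM-negative arrays correlated at r = 0.948 to 0.963 and the 3 pairs of IgM-positive arrays at 0.865 to 0.891. The 9 pairs between the groups lay at 0.89 to 0.939. Genes are not independent replicates, and these values describe the arrays. The median SD of a gene was 0.26 in IgM-negative and 0.51 in IgM-positive cells, and the SD was larger in IgM-positive cells for 77.7% of genes. The test used 1 spread per gene for all groups and did not allow for this inequality. Array 21 stood apart on the first principal component of the 6 arrays (40.8% of the variance) and array 19 on the second (25%). Array 19 also lay on another slide, while the other 5 shared a slide.

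The B cell label was checked against 10 B lineage markers. All 10 were well above background on all 6 arrays, and 9 had a higher mean in the fetal liver B cells than in the 12 heterozygous thymocyte arrays, Cd22 being the exception. However, for none of the 10 did the B cell and thymocyte values separate fully. Cd79a had the largest gap of the 10, with a mean of -0.20 over the 6 B cell arrays and -1.69 over the thymocytes. Among the 9, the means were close for Ms4a1 (-1.85 and -1.88), Vpreb3 (-0.66 and -0.74) and Blnk (-0.38 and -0.48). The share of all genes with a higher mean in the B cells is not given here, so the count of 9 has no background beside it. Cd22, at 5.29 and 5.36, was as bright in thymocytes as in B cells, so a signal well above background was not by itself specific to a cell type on these arrays.

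Igkc, the constant region of the kappa light chain, gave the largest difference among the genes of the receptor. Its scaled log2 signals were -1.64, -0.55 and 1.0 on the IgM-negative arrays 16, 17 and 18. On the IgM-positive arrays 19, 20 and 21 they were 0.33, 1.93 and 3.31. The brightest IgM-negative array was thus above the dimmest IgM-positive one, and the groups overlapped. The means were -0.40 ± 1.33 and 1.86 ± 1.49 (SD, n = 3), a difference of 2.26 with a standard error of 0.81, or 4.77-fold, which did not pass the test (limma adjusted p = 0.596). Among the 5 arrays of the shared slide the difference was 3.02, and without array 21 it was 1.53. The means of the other groups lay lower than both. Igkc averaged -1.57 ± 2.09 in the 2 arrays of IgM-negative B cells of Foxn1-deficient thymus, and between -2.53 and -1.46 in the 5 thymocyte groups. Single arrays overlapped with the IgM-negative ones of fetal liver. The higher thymic B cell array was at -0.09, above arrays 16 and 17, and thymocyte arrays reached -1.16, above array 16.

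The split of the kappa variable segments moved with the scaling. Of the 56 tested, 28 were higher and 28 lower in IgM-positive cells, beside 33.6% of all genes higher, with a median difference of 0.00 beside -0.15 for all genes. After quantile scaling 33 were higher and 23 lower, beside 45.3% of all genes higher, and with median scaling 36 were higher and 20 lower, beside 16810 of the 33541 genes higher. The IgM-positive values lay all above the IgM-negative ones for 3 segments and all below for 4, beside 2.02% and 11.5% of all genes. The 3 higher ones, named after their values were seen, were Igkv1-131, Igkv1-135 and Igkv14-126, all in the part of the locus farthest from the constant region. The probes of the constant region and of 4 segments of the kappa 1 family are printed because the family's members differed in signal and because some of the probes share sequence. Each is 60 bases, 5′ to 3′, placed by the array's annotation on chromosome 6 of mm9, in the kappa constant and variable genes; exon positions were not used here. In the first, capitals mark the stop codon that ends the probe; in the others, they mark the longest run shared with the other probe of its pair, of 20 bases between Igkv1-131 and Igkv1-135 and of 21 bases between Igkv1-132 and Igkv1-133.
Igkc, chr6:70676692-70676751, plus strand: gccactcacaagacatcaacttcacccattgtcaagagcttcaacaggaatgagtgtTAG
Igkv1-131, chr6:67716170-67716229, minus strand: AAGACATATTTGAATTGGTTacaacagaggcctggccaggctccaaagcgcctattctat
Igkv1-135, chr6:67560270-67560329, plus strand: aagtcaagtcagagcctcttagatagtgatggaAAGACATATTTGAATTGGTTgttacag
Igkv1-132, chr6:67710344-67710403, plus strand: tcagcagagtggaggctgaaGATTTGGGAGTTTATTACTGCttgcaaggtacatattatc
Igkv1-133, chr6:67675577-67675636, plus strand: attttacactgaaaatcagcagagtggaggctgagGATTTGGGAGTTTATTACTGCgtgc

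Igkv1-131 had the largest difference of all kappa segments. Its signals were -2.87, -3.25 and -3.14 in IgM-negative and -0.62, -1.04 and 0.55 in IgM-positive cells. The groups did not overlap, and the difference was 2.72 ± 1.04 (standard error; limma adjusted p = 0.622), or 6.58-fold; among the arrays of the shared slide it was 2.84. Igkv1-135, whose probe shares 20 bases with that of Igkv1-131, had -1.33, -1.85 and -1.46 in IgM-negative and -1.06, -0.52 and 1.10 in IgM-positive cells, a difference of 1.39 ± 0.40 (standard error; adjusted p = 0.47). Array 21 was the highest for both, and without it the differences were 2.26 and 0.76. Igkv1-132 and Igkv1-133, whose probes share another run, differed by 0.40 and 0.33, and their groups overlapped. Since the probes of each pair share sequence, the signals within a pair may not be separate measurements. This holds for Igkv1-131 and Igkv1-135 and for Igkv1-132 and Igkv1-133.

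Igkv11-125 differed by 1.38, with values of -1.66, -0.87 and -2.37 in IgM-negative and -1.56, 0.00 and 0.78 in IgM-positive cells, which overlapped. The 4 segments that were lower on all 3 IgM-positive arrays were Igkv6-29, Igkv15-103, Igkv9-123 and Igkv8, with differences of -1.32, -0.93, -0.57 and -0.21; the other probe of Igkv15-103 differed by 0.05. Igkv6-15 had probes that disagreed: the brighter one, used in the test, differed by -0.60, while the other was not well above background on any IgM-negative array, was so on all 3 IgM-positive arrays, and differed by 1.74. Of the 24 heavy chain variable segments tested, 12 were higher and 12 lower, beside 33.6% of all genes higher, with a median of 0.03. Of these segments 0 lay all above and 3 all below, beside 2.02% and 11.5% of all genes. The 3 were Ighv1-24, Ighv9-3 and Ighv1-12, which differed by -0.61, -0.60 and -0.38. The plot of differences along the kappa locus shows the segments in their order.

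**Figure D1:**
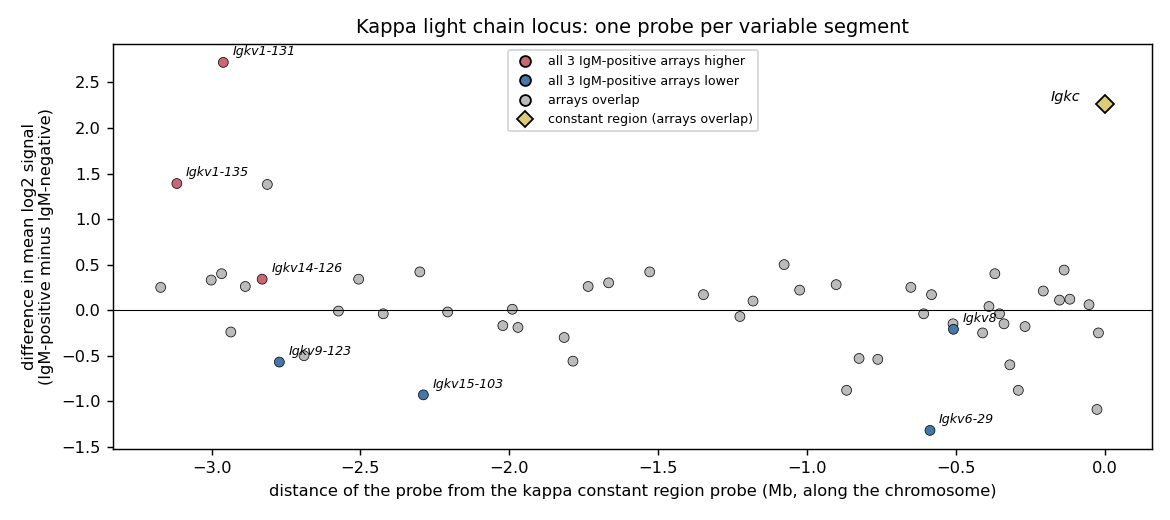
Difference in mean scaled log2 signal (IgM-positive minus IgM-negative, vertical axis) for 55 kappa variable segments with a position, by the distance of the probe from that of the constant region in Mb (horizontal axis); the diamond is Igkc. Red points have all 3 IgM-positive arrays above the IgM-negative ones and blue points all 3 below; most points lie near 0, with Igkv1-131 at 2.72 and Igkc at 2.26.

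The other chains of the receptor differed less. Ighm, the mu heavy chain itself, had signals of 0.58, 0.33 and 1.74 in IgM-negative and 1.08, 1.08 and 0.51 in IgM-positive cells. Its difference was 0.01 ± 0.49 (standard error; adjusted p = 0.999), with overlapping groups, so no difference in Ighm signal was detectable at this precision. The lambda constant genes Iglc2 and Iglc3 differed by 0.32 and 0.22, and their groups overlapped. Igkc was thus the member of the 10 tested with the largest difference, 4 being higher and 6 lower, beside 66.4% of all genes lower.

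Of the surrogate light chain, Vpreb1 had the largest difference. It had -0.14, -1.07 and -0.65 in IgM-negative and -3.27, -1.43 and -1.07 in IgM-positive cells, a difference of -1.30 ± 0.71 (standard error; adjusted p = 0.743). Array 17 and array 21 were equal at -1.07, and the low value of array 19 carried much of the difference, which was -0.63 without that array. Its partner Igll1 (lambda 5) differed by -0.34, with values from -2.01 to -0.02 in IgM-positive and from -1.51 to -0.20 in IgM-negative cells. Vpreb2 and Vpreb3 differed by -0.19 and -0.20. Vpreb2 was nearly as bright in CD4 single-positive thymocytes (2.50 ± 0.07, n = 3) as in IgM-negative B cells (2.82 ± 0.11, n = 3). Thymocyte group means of Vpreb1 ran from -2.19 to -0.10, a range that held its IgM-negative and IgM-positive means (-0.62 and -1.92). Those of Igll1 ran from -1.78 to -1.16, beside -0.91 in IgM-negative and -1.25 in IgM-positive cells.

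The signalling chains were lower on average in IgM-positive cells, within the spread. Cd79a had 0.69, -0.94 and 1.27 in IgM-negative and -0.68, 0.93 and -2.46 in IgM-positive cells, a difference of -1.07 ± 0.76 (standard error; adjusted p = 0.801); its other probe differed by -0.15. Cd79b differed by -0.44. The plot of receptor genes shows that the spread of Igkc, Vpreb1 and Cd79a within a group was of the size of the difference between groups.

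**Figure D2:**
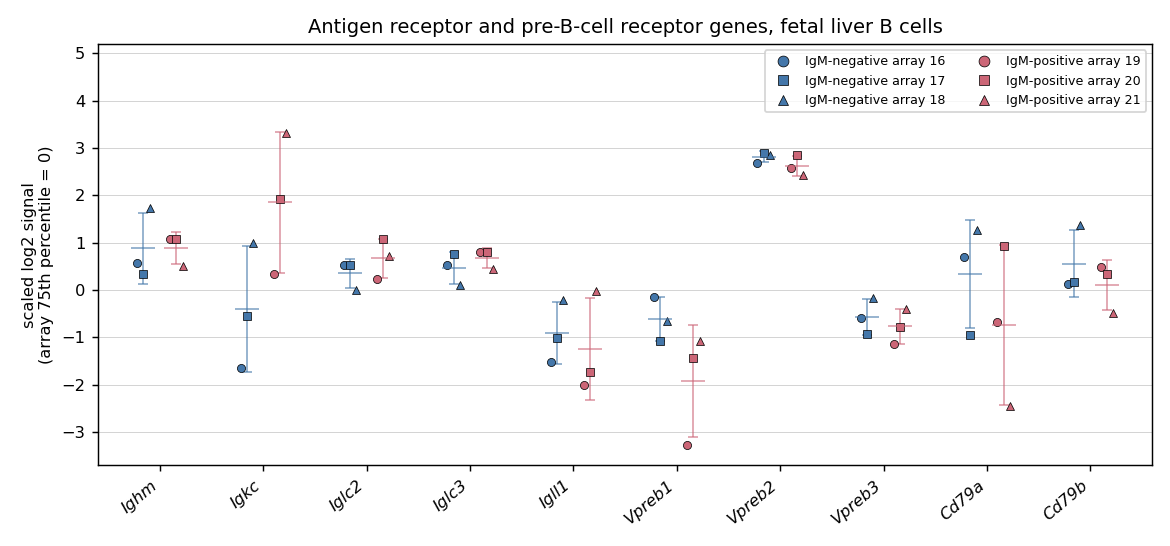
Scaled log2 signal (vertical axis, the array's 75th percentile at 0) of the 10 tested genes of the pre-B cell receptor and B cell receptor on the 6 arrays; symbols mark arrays, bars the mean and SD of 3 arrays. Igkc was higher on average in IgM-positive cells (1.86 against -0.40) and Ighm was level (0.89 against 0.88), and the groups overlapped for all 10 genes.

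Genes of V(D)J recombination, the cutting and joining of receptor segments, were mostly lower in IgM-positive cells. Of 14 genes tested, 12 were lower and 2 higher, beside 66.4% of all genes lower (54.7% after quantile scaling, where 11 of the 14 were lower), and the median difference was -0.25 (-0.15 after quantile scaling). With median scaling 9 of the 14 were lower (median -0.10), beside 16731 of the 33541 genes lower. Without array 17, 9 were lower (median -0.31). Over the 20 alternatives computed for lists the median ran from -0.42 to -0.10. None was called; 3 lay all below and 0 all above, beside 11.5% and 2.02% of all genes. Rag1, which with Rag2 makes the recombinase that cuts at the segments' ends, had -2.82, -2.0 and -1.32 in IgM-negative and -3.08, -3.30 and -3.73 in IgM-positive cells. The groups did not overlap, and the difference was -1.33 ± 0.66 (standard error; adjusted p = 0.713), or -1.47 on the shared slide. Its other probe differed by -2.46, with overlapping groups.

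Rag2 had -3.13, -1.92 and 0.12 in IgM-negative and -5.45, -7.31 and -2.62 in IgM-positive cells. The difference of -3.49 ± 1.49 (standard error; adjusted p = 0.649) rested on overlapping groups, and the probe was well above background on only 1 IgM-positive array. Its other probe, as measured, differed by -1.94 without overlap, but was well above background on 2 IgM-negative arrays and no IgM-positive one. Lig4, the ligase of end joining, differed by -2.06, and Nhej1, a factor of the same ligase complex, by -0.43; these were the other 2 genes without overlap. Xrcc4, the partner of that ligase, differed by -1.44 with overlap. Lig4 and Xrcc4 were each well above background on only 1 IgM-positive array, so the sizes of their differences are uncertain. Dntt, the terminal transferase that adds bases at the joints, differed by -0.02, with 6 values from 1.41 to 1.72, but it was as bright in the thymocytes, with group means from 1.26 to 1.82. Prkdc, a kinase of end joining, was the largest exception, at 1.88. In heterozygous thymus, Rag1 averaged -0.77 ± 0.59 (n = 3) at the CD4 and CD8 double-negative stage and -3.79 ± 0.87 (n = 3) in CD4 single-positive cells. It averaged -2.17 ± 0.35 (n = 3) in double-positive cells there, and -3.09 ± 0.00 (n = 2) in the IgM-negative B cells of Foxn1-deficient thymus. The means in fetal liver were -3.37 ± 0.33 in IgM-positive and -2.04 ± 0.75 in IgM-negative cells (n = 3 each), so the thymic B cells, although IgM-negative, lay closer to the IgM-positive mean.

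Genes of MHC class II, which presents peptides to CD4 T cells and appears on maturing B cells, leaned the other way. Of 12 tested, 10 were higher and 2 lower in IgM-positive cells, beside 33.6% of all genes higher (45.3% after quantile scaling), with a median difference of 0.25 (0.38 after quantile scaling). None was called, and for all 12 the groups overlapped. Cd74, the invariant chain that guides class II to its loading compartment, had 0.17, 0.27 and -0.09 in IgM-negative and 0.16, 1.49 and 0.43 in IgM-positive cells, a difference of 0.58 ± 0.31 (standard error; adjusted p = 0.735). Array 20 was high and array 19 at the level of the IgM-negative arrays. H2-DMb1, part of the peptide exchanger, differed by 0.81, and H2-Oa, part of its inhibitor, by 0.76. Ctss, the protease that trims the invariant chain, differed by 1.62, with all values between -6.31 and -2.48. H2-Ab1 and H2-Eb1 differed by 0.18 and 0.23, H2-Aa by -0.61, and Ciita, the regulator of the class, by -0.04. Without array 21, 7 of the 12 were higher, and over the 20 alternatives computed for lists the median stayed between 0.16 and 0.53.

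**Figure D3:**
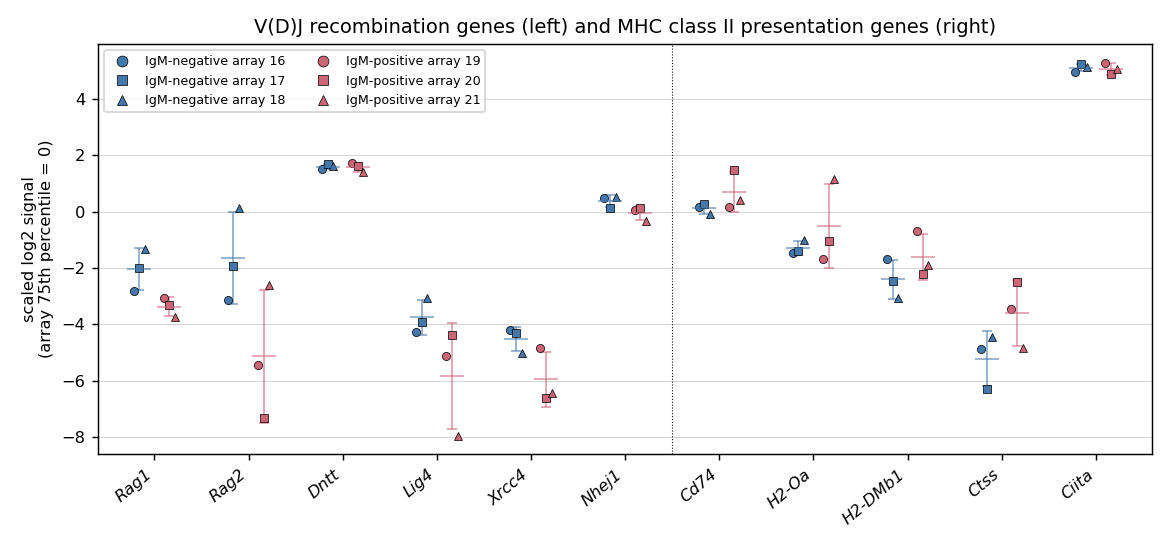
Scaled log2 signal (vertical axis, the array's 75th percentile at 0) of recombination genes, left of the dotted line, and class II presentation genes, right of it, on the 6 arrays; symbols mark arrays, bars the mean and SD of 3 arrays. Rag1, Lig4 and Nhej1 lay lower on all 3 IgM-positive arrays, and the class II genes overlapped.

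The genes with the largest moderated t in each direction were named although none passed the threshold. In the lower direction, those closest to it were at background in IgM-positive cells. Kcnq1, a potassium channel subunit, had -2.91, -3.04 and -2.69 in IgM-negative and -7.38, -8.05 and -8.04 in IgM-positive cells (adjusted p = 0.0654). The signal was not well above background on any IgM-positive array, where only a bound exists: it was at least 6.7-fold lower, and its other probe showed the same pattern, with a measured difference of -4.39. The bound sets the IgM-negative mean against the array's lowest signal among probes well above background, or the probe's own value where that is higher.

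Golga7, a partner of a palmitoyltransferase, was at least 10.9-fold lower and Nat8f4, an acetyltransferase family member, at least 5.1-fold lower (adjusted p = 0.0679 for both). Ap1s2, a subunit of a clathrin adaptor, was at least 5.4-fold lower (adjusted p = 0.278). The other probe of Golga7 differed by only -0.69 with overlapping groups, so the size rests on 1 probe. In the normexp background correction, which lifts low signals, the differences of Kcnq1 and Golga7 were -1.31 and -1.96. Kcnq1 (-6.65 ± 1.46, n = 2) was also not well above background on either of the arrays of IgM-negative B cells from Foxn1-deficient thymus. Array 23 of these was the dimmest of the series. Kcnq1 passed the threshold with median scaling, in a fit of the 6 arrays alone and in a fit without those thymic B cells.

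The other 3 lower genes named were measured on all 6 arrays. Ddx51, an RNA helicase, had 0.25, 0.64 and 0.30 in IgM-negative and -0.82, -0.79 and -0.97 in IgM-positive cells, a difference of -1.25 ± 0.24 (standard error; adjusted p = 0.202). Cct2, a subunit of the cytosolic chaperonin, had -0.74, -1.56 and -0.90 against -3.31, -4.58 and -4.18, a difference of -2.96 ± 0.57 (adjusted p = 0.216). Gbp7, a guanylate-binding protein, differed by -2.48, but its other probe by 0.11.

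Loss of signal was far more frequent in IgM-positive cells than the reverse. 174 genes were well above background on all 3 IgM-negative arrays and on no IgM-positive array, and 4 genes showed the opposite. Of the 3853 genes that lay all below, 3154 were well above background on all 6 arrays and 240 on no IgM-positive array. The lower share of probes above background on the IgM-positive arrays moved with these counts, and its part in them was not tested.

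The 8 higher genes had adjusted p from 0.283 to 0.406. C2cd4c, a C2 domain protein gene, had -1.16, -0.66 and -2.19 in IgM-negative and 1.69, 0.95 and 0.76 in IgM-positive cells, a difference of 2.47 ± 0.52 (standard error; adjusted p = 0.283), or 5.54-fold. It averaged between -1.70 and -0.79 in the 5 thymocyte groups and -1.15 ± 0.81 (n = 2) in thymic B cells of Foxn1-deficient mice, all below its IgM-positive mean of 1.13. The vomeronasal receptor gene Vmn1r132 differed by 2.00, Socs7, of the suppressors of cytokine signalling, by 1.63, and Mycbpap, a gene for a partner of a Myc-binding protein, by 1.58. Ednrb, an endothelin receptor, differed by 1.38, but its other probe by -0.48. The homeobox gene Hoxc12, the kinesin light chain gene Klc4 and the transporter gene Slc22a30 differed by 1.11, 0.85 and 0.78.

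**Figure D4:**
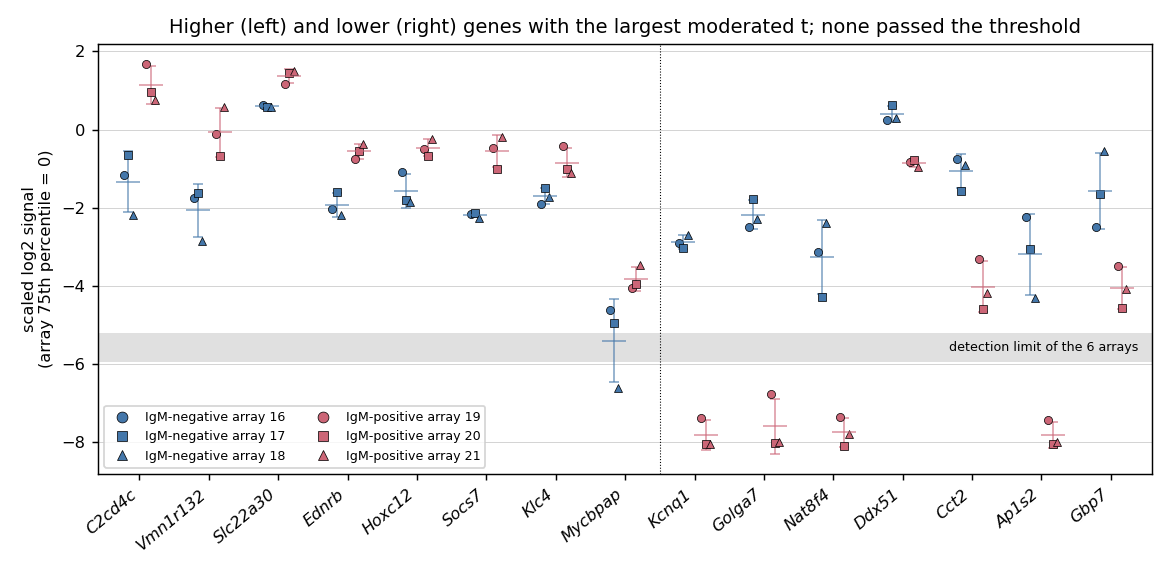
Scaled log2 signal (vertical axis, the array's 75th percentile at 0) of the 8 higher and 7 lower genes named by the largest moderated t on the 6 arrays; symbols mark arrays, bars the mean and SD of 3 arrays, and the grey band spans the lowest signal of probes well above background on each array (-5.95 to -5.21). Of the 7 lower genes, 4 lie below the band on every IgM-positive array.

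Genes downstream of the receptor stayed near the general shift. Of 30 genes of B cell receptor signalling, 10 were higher and 20 lower, beside 33.6% and 66.4% of all genes, with a median of -0.14. In this list 1 lay all above and 2 all below, beside 2.02% and 11.5% of all genes. Inpp5d, the phosphatase SHIP that limits the signal, had -2.21, -2.03 and -0.90 in IgM-negative and -2.34, -3.81 and -4.27 in IgM-positive cells, a difference of -1.76 (adjusted p = 0.695). Map4k1, a kinase bound by receptor adaptors, was well above background on 2 IgM-negative arrays and no IgM-positive array, and was at least 2.0-fold lower by the means, with overlapping groups. Prkcb, the protein kinase C of B cells, differed by 1.59, but its other probe by -0.02. Pik3cd, the lymphocyte catalytic subunit of PI3 kinase, differed by -0.34.

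No gene of the stage lists was called. Of 26 genes of the pro-B and pre-B stages, 18 were lower and 8 higher (median -0.12), beside 66.4% of all genes lower. In this list 2 lay all below, beside 11.5% of all genes. They were Erg, an ETS factor, at -4.77 (well above background on 1 IgM-positive array), and Cecr2, a chromatin factor, at -1.21. Spn, which encodes CD43 of early B cells, differed by -1.68 with overlapping groups. Kit and Il7r, receptors of early progenitors, differed by 0.11 and 0.62. Of 41 genes of immature and mature B cells, 19 were higher and 22 lower (median -0.03), beside 33.6% of all genes higher. After quantile scaling 23 were higher and 18 lower (median 0.17), beside 45.3% of all genes higher. With median scaling 30 were higher and 11 lower (median 0.12), beside 16810 of the 33541 genes higher. In this list 0 lay all above and 4 all below, beside 2.02% and 11.5% of all genes. Among the 4 were Gpr183, which guides B cell migration, at -1.58, and Cd83, an activation marker, at -1.44. Ms4a1 (CD20), Cr2 (CD21) and Fcer2a (CD23) differed by 0.11, -0.13 and 0.18. Thymocyte group means ran from -2.19 to -1.76 for Ms4a1 and from 1.41 to 1.71 for Fcer2a. Both ranges held the IgM-negative and IgM-positive means (-1.90 and -1.79, and 1.53 and 1.71), so these signals did not set B cells apart. For Cr2 the B cell means, 4.89 and 4.76, lay above the thymocyte means of 4.39 to 4.57.

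Of 20 transcription factors of the B lineage, 17 were lower and 3 higher, beside 66.4% of all genes lower (54.7% after quantile scaling, where 13 of the 20 were lower). Their median was -0.30, or -0.21 after quantile scaling, and 1 lay all below, beside 11.5% of all genes. Tcf3, which encodes E2A, differed by -0.95, Ets1 by -1.18, Irf4 by -1.18 and Bach2 by -0.79, each with overlapping groups and adjusted p from 0.684 to 0.758; the other probe of Bach2 differed by 0.11. Array 21 was the lowest of the 6 for Irf4 (-4.54) and Bach2 (-2.20), and without it 13 of the 20 were lower. Pax5, which holds the B cell identity, had 1.05, 1.52 and 1.96 in IgM-negative and 1.03, 1.59 and 1.03 in IgM-positive cells, and Ebf1, which acts before it, differed by -0.25.

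Interleukin 7 feeds pro-B and pre-B cells. Of 16 genes of its receptor and pathway, 10 were lower and 6 higher (median -0.28, or 0.01 after quantile scaling), beside 66.4% of all genes lower. Il2rg, the common gamma chain, had -3.76, -1.89 and -2.56 in IgM-negative and -3.73, -7.93 and -7.41 in IgM-positive cells, with array 19 at the IgM-negative level and the only one of the 3 where it was well above background. Pim2, a kinase induced by the pathway, differed by -1.45. Of 15 genes of survival and death, 8 were lower and 7 higher, beside 66.4% of all genes lower. In this list 1 lay all above and 2 all below, beside 2.02% and 11.5% of all genes. The killer Bcl2l11 (BIM) had -1.30, -1.99 and -1.53 in IgM-negative and -4.01, -3.80 and -3.76 in IgM-positive cells, a difference of -2.25 ± 0.82 (standard error; adjusted p = 0.609), and its other probe differed by -0.91. The survival gene Bcl2l1 (BCL-XL) differed by -1.74 and the survival gene Mcl1 by 1.16, both without overlap; their other probes differed by -0.36 and -0.19.

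Cell cycle genes were split. Of 19 genes of DNA replication, 13 were lower and 6 higher (median -0.15, or 0.03 after quantile scaling), beside 66.4% of all genes lower. In this list 3 lay all below, beside 11.5% of all genes: Mcm3, Mcm4 and Pole. Mcm3, a helicase subunit, was at least 4.3-fold lower and not well above background on any IgM-positive array. Mcm4 and Pole differed by -0.34 and -0.44. Of 18 mitotic genes, 9 were higher and 9 lower, beside 33.6% of all genes higher. Top2a, topoisomerase II, had -2.34, -1.69 and -0.57 in IgM-negative and -4.46, -3.06 and -3.79 in IgM-positive cells, a difference of -2.24 (adjusted p = 0.584), whereas Ccna2, cyclin A, had -4.63, -3.59 and -3.71 against -2.32, -1.96 and -2.62, a difference of 1.68 (adjusted p = 0.687). Both are genes of dividing cells, and they lay on opposite sides. Mki67, the proliferation marker, differed by 0.20 and its other probe by -1.37, so its direction was not settled.

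Immediate early and NF-kB genes, which answer receptor stimulation within minutes to hours, were mostly lower in IgM-positive cells. Of 20 tested, 17 were lower and 3 higher, beside 66.4% of all genes lower (54.7% after quantile scaling, where 15 of the 20 were lower). Their median was -0.26, or -0.16 after quantile scaling, and 5 lay all below and 0 all above, beside 11.5% and 2.02% of all genes. Fos had -4.12, -4.88 and -3.54 in IgM-negative and -7.31, -7.72 and -7.83 in IgM-positive cells; it was not well above background on any IgM-positive array and was at least 2.7-fold lower (adjusted p = 0.553). Icam1, an adhesion gene under NF-kB, differed by -2.99, the stress gene Atf3 by -0.75, and the nuclear receptor gene Nr4a3 was at least 2.7-fold lower; Nfkbid was the fifth. Jun and Junb differed by -0.15 and -0.20, and Egr1 by 0.54. Fos also averaged -7.46 ± 0.28 in the 2 arrays of thymic B cells of Foxn1-deficient mice, on neither of which it was well above background. Array 23 of these was the dimmest of the series.

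Of 10 genes of antibody secretion, 7 were lower and 3 higher, beside 66.4% of all genes lower. Their median was -0.87, or -0.32 after quantile scaling. Without array 21 it was -0.05, with 5 higher and 5 lower. Over the 20 alternatives computed for lists it ran from -1.11 to -0.05, so the value depended on the arrays and settings used. Hsp90b1, a chaperone of the endoplasmic reticulum, had -1.24, -0.69 and 0.35 in IgM-negative and -2.24, -2.08 and -1.99 in IgM-positive cells, a difference of -1.58 ± 0.45 (standard error; adjusted p = 0.47). Xbp1, the regulator of the secretory programme, differed by -1.32 (well above background on only 1 IgM-positive array), and Edem1, of the degradation of misfolded proteins, by 1.16, both with overlapping groups. Of 12 genes of the fetal programme, 6 were higher and 6 lower, beside 33.6% of all genes higher, and 0 were free of overlap. Igf2bp3 and Arid3a, tied to fetal lymphopoiesis, differed by -0.63 and -0.14.

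Of 24 cytosolic ribosomal protein genes, 18 were lower and 6 higher (median -0.16), beside 66.4% of all genes lower. Rpl4 differed by -1.45 ± 0.37 (standard error; adjusted p = 0.406) and Rps9 by -0.88, both lower on all 3 IgM-positive arrays. Rplp0, of the ribosomal stalk, had -1.34, -1.42 and -1.81 in IgM-negative and -0.88, -0.63 and 0.53 in IgM-positive cells, a difference of 1.19 ± 0.37 (standard error; adjusted p = 0.534). All of its probes pointed the same way without overlap, the other two by 1.06 and 2.47. The plot of list medians sets these groups side by side.

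**Figure D5:**
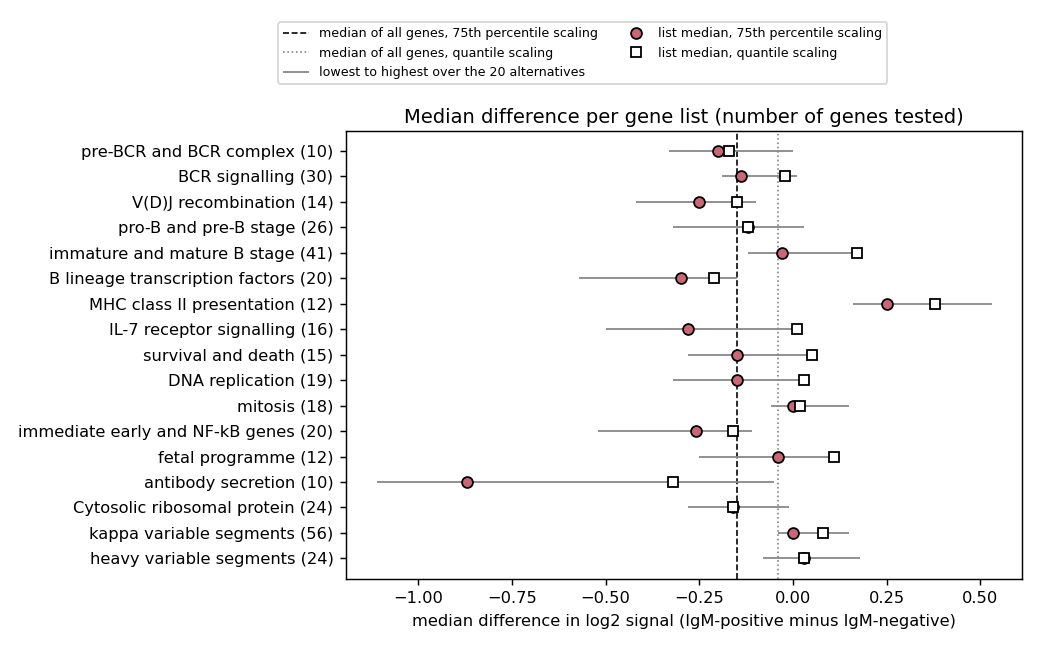
Median difference in log2 signal (IgM-positive minus IgM-negative, horizontal axis) for each gene list (number of genes tested in brackets) with 75th percentile scaling (circles) and quantile scaling (squares); grey lines span 20 alternatives and the vertical lines give the median of all genes (-0.15 and -0.04). The class II list lies at 0.25 and antibody secretion at -0.87, which was -0.05 without array 21.

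Markers of other fetal liver cells gave signal in both groups. Of the 15 erythroid markers tested, 13 were well above background on all 6 arrays; their mean ran from -1.59 to -1.53 on the IgM-negative and from -1.93 to -1.70 on the IgM-positive arrays, without overlap, as the mean of all genes also ran lower there. They did not move together: Hba-a1 and Hbb-b2, of adult haemoglobin, differed by -0.67 and -0.85 and Rhd, of the Rhesus complex, by -4.45, all lower on all 3 IgM-positive arrays. Rhd was well above background on only 1 of those arrays, so the size of its difference is uncertain. In contrast, Gata1, the erythroid regulator, had -0.72, -1.11 and -1.16 against 0.16, -0.16 and 0.36, a difference of 1.12 (adjusted p = 0.541). The mean of 11 hepatocyte markers ran from -2.26 to -1.43 and from -2.47 to -1.68, that of 15 myeloid markers from -0.39 to 0.00 and from -0.69 to 0.04, and that of 12 T and NK markers from -0.29 to -0.22 and from -0.43 to -0.15 in IgM-negative and IgM-positive cells. Those of 6 megakaryocyte, 9 stem and progenitor, 10 endothelial and stromal and 5 mast cell and basophil markers also overlapped between the groups. The median differences of these 8 lists lay between -0.42 and 0.03. In bulk samples, fewer cells of a type and less RNA per cell cannot be told apart.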

How the data were processed

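RNA of sorted cells was amplified by PCR after tagging with random and oligo(dT) primers (SuperAmp) and labelled with Cy3, per the labels' protocols; amplification from few cells can lose or distort weak transcripts. The deposited spot files hold intensity values made with Agilent Feature Extraction, per the file headers (processed signal, background-subtracted and detrended, with mean and background signals). The authors' deposited series matrix holds log2 values; its columns share a median of 7.93 and rank probes as the spot signals do, and at each of 7 percentiles from 1 to 99 they differ by at most 0.012, so the values are log2 with equalised distributions. These values were used in an alternative.

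Control spots (3671 of 62976) were left out, non-uniform values (248) set to missing, and spots averaged to 55681 probes. The processed signal was put on the log2 scale and its 75th percentile on each array was subtracted. The brightest probe stood for a gene, and genes with no probe well above background throughout any group were dropped; 95.2% of probes passed. Names came from the accession, symbol or description in the files through a RefSeq gene table; immunoglobulin segments were named from descriptions. Symbols and positions (mm9) are those of the array design.

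limma 3.58.1 in R 4.3.3 (lmFit, eBayes) was fitted on all 24 arrays, so the groups shared 1 estimate of the spread, with Benjamini-Hochberg adjustment over all genes; calls needed an adjusted p under 0.05. It was tested on simulated data. The number of arrays limits the precision; an exact permutation test of 3 against 3 arrays cannot go below 0.1. The 16 alternatives covered scaling, background, filter, probe choice, samples, slide, weights and left-out arrays; leaving out each of the 6 arrays is 1 of them, and lists, which need 1 value per gene, were computed under the 20 settings that gave one. The members and gene lists were chosen with earlier results of these data known, so lists were described by counts and medians and not tested. Genes named were: up to 8 per direction with the largest moderated t among those without overlap, a fixed set of 24 core genes, every gene of the receptor list, and up to 4 per list with the largest moderated t; others are said to be chosen after their values were seen, or named as further members of a list. Some named genes are not reported here.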

Additional observations from a re-analysis of the deposited data

How the results depend on the processing

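The count of called genes was 0 and stayed at 0 with quantile scaling, normexp, the authors' log2 table, no filter, the strict filter, the mean of all probes, every probe tested on its own, slide as a random block, the shared slide alone, and the trended robust prior; the smallest adjusted p over these ran from 0.0577 to 0.274. It was 3 with median scaling (Golga7 and Kcnq1 among them), 2 in the 6 arrays alone (Kcnq1 and Rnf125), 3 without the thymic B cells (Ddx51, Golga7 and Kcnq1), 7 with slide as a fixed block and 1 with array weights (Golga7), all lower in IgM-positive cells; the cause was not tested. With 1 array left out it ran from 0 to 8, the highest without array 20 (1 higher, 7 lower), and it was 2 without array 19 and 1 without array 18. Genes all above numbered 679, or 1633 with median scaling and 1456 in the authors' table; genes all below numbered 3853, or 2290 and 2485; the cause was not tested. Of 139 named genes, 114 kept their sign under all alternatives that gave a value. No paired analysis was possible because the groups share no replicate number. Array 19 was the only one of the 6 on its slide, so a slide effect could be set against the groups only through the other arrays of that slide.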
